A study of Mus musculus with 8 samples.

Results

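RNA from late (heavier) polysomes was compared with RNA from early (lighter) polysomes of the same lysates in mice with a conditional deletion of Mex3a (cKO). Mex3a encodes an RNA-binding protein with KH domains and a RING finger. The tissue was the main olfactory epithelium, the sheet of odour-sensing neurons, supporting cells, glands and stem cells that lines part of the nasal cavity. The comparison used 4 of the 8 libraries of the series: the early and the late library of 2 cKO lysates, chosen by the titles of the samples and paired because the early and late library of each lysate carry the same lysate name. cKO mice were Mex3a flox/flox and carried a Cre allele. The Cre line is not reported here. The other 4 libraries were the early and late libraries of 2 WT lysates, from mice that were Mex3a flox/flox or Mex3a flox/+ without Cre. They entered the scaling between libraries, the filter on mean TPM and the estimate of the spread. Their changes are set beside those of cKO at the end. One of the 4, WT early replicate 2, is tagged with the genotype of cKO although its title says WT, and the title was followed. The design text of the series describes sorted cells from mice with tetO-HyperTRIBE constructs and tTA drivers, and the labels of these 8 samples name neither a sort nor a construct. Age, sex, the number of animals per lysate and whether the lysates came from separate animals are not given in the sources used here. The p-values rest on how far the late minus early change varies between lysates of the same genotype, and that spread may be technical.

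An mRNA in the act of being translated carries ribosomes along its coding sequence, and in a sucrose gradient it moves further down the more ribosomes it carries. A short coding sequence has room for few ribosomes, so its mRNA reaches the heavy fractions less readily than a long one at the same initiation rate. Features in front of or within a coding sequence, such as upstream open reading frames (uORFs) and stop codons that are read as an amino acid, can also change how many ribosomes sit on an mRNA.

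Per the labels' protocols, tissue was kept in 100 µg/mL cycloheximide, a drug that holds ribosomes in place, from dissection on. About 42 fractions of 350 µL were taken from each gradient, and 50 µL of each was pooled from fractions 27 to 34 (early) or 35 to 42 (late). The values are transcripts per 1000000 (TPM), which give each gene's share of a pool, so a rise means a larger share of the late pool and not more RNA in it. The depth inferred from the steps of the TPM values was 11469998 and 10286773 reads in the early libraries of lysates 1 and 2, and 10289412 and 7776792 in the late ones. The late library of lysate 2 was the shallowest of the 8, since the WT libraries held 11699629 to 12771079. Replicates correlated across genes (log2 scale) at 0.981 in early and 0.978 in late, and the early and late library of a lysate at 0.944 in lysate 1 and 0.902 in lysate 2. Defining genes of the labelled tissue were present in all 4 cKO libraries: Omp of mature olfactory neurons lay between 2438.7 and 4435.9 TPM and Cyp2g1 of the supporting cells between 696.9 and 3418.8. Col1a1, a gene of bone and connective tissue, was as abundant, between 5533.3 and 11028.2 TPM.

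Mex3a was examined first. It was at 97.4 and 115.6 TPM in the WT early and 93.2 and 95.6 in the WT late libraries, against early values of 13.9 and 19.8 and late values of 11.1 and 13.8 in cKO lysates 1 and 2. All 4 cKO libraries lay below all 4 WT libraries, and the library with the conflicting tag was the one at 115.6. The Mex3a RNA left in cKO fell from early to late by 0.51 on the log2 scale (SE 0.12, limma adjusted p = 0.0133), with early and late not overlapping only in the narrow sense that 13.9 was the lowest early and 13.8 the highest late value. Without lysate 2 its change was -0.38 (limma adjusted p = 0.129), so the call rests on that lysate. Of the other family members, Mex3c fell by 0.83 (SE 0.11, limma adjusted p = 0.00204), while Mex3b (-0.08, limma adjusted p = 0.576) and Mex3d (-0.19, limma adjusted p = 0.156) did not pass.

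More than 1 gene in 2 changed its share between the pools. Of 16097 genes tested, 9244 (57.4%) passed an adjusted p of 0.05 by limma with Benjamini-Hochberg adjustment. Of these, 4634 (28.8% of those tested) were higher in late polysomes and 4610 (28.6%) lower, and the median change over all genes was -0.01 log2. The zero of the changes is set by scaling the libraries to median ratios, so this balance depends on the scaling. With TPM as deposited 5338 genes were called higher and 3939 lower. Changes are differences of log2(scaled TPM + 1), late minus early, averaged over the 2 lysates. Rises were the smaller changes: 931 called genes rose by more than 1 on the log2 scale and 1759 fell by more than 1. In 6441 genes (40.0%) both late libraries lay above both early ones, and in 6439 (40.0%) below. Without lysate 2 the count was 5109, with 2375 higher and 2734 lower.

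The 2 lysates moved the same way, and lysate 2 moved further. All 9244 called genes had the same sign in both lysates, and 7544 of them (81.6%) changed more in lysate 2. The shared sign follows largely from the test, which passes few genes whose lysates disagree. Over all tested genes the SD of the change was 0.673 in lysate 1 and 0.897 in lysate 2, and the changes in the 2 lysates correlated at r = 0.780 over genes, which are not independent replicates. In WT the SD over the same genes was 0.625 in lysate 1 and 0.782 in lysate 2, whose late library held 12771079 reads. Whether the lower depth of the late library of cKO lysate 2 has a part in the wider changes was not tested.

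**Figure D1:**
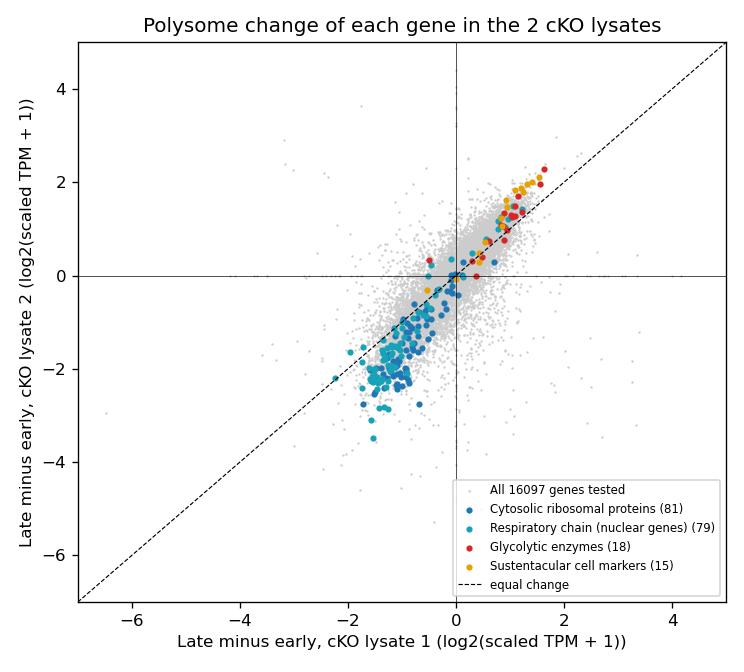
Each point is 1 of 16097 tested genes, placed by its late minus early change on the log2(scaled TPM + 1) scale in cKO lysate 1 (x axis) and cKO lysate 2 (y axis), with 4 gene lists in colour and the line of equal change dashed. Ribosomal protein and respiratory chain genes lie mostly at the lower left and below the dashed line, and glycolytic enzymes and sustentacular cell markers at the upper right, mostly above it.

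Coding length ran through the whole comparison. In 15129 tested genes with an annotated coding sequence, the change rose with the length of the longest coding sequence (Spearman rho = 0.624 over genes, 0.603 in lysate 1 and 0.609 in lysate 2). Genes of 1 comparison share libraries and are not independent, so rho is given as a description with no p. In the shortest of 10 bins of equal size (median 411 nt) the median change was -1.19 (-1.01 in lysate 1 and -1.35 in lysate 2), and 1308 of 1513 genes fell while 3 rose. The crossing point lay near 1215 nt, the median of bin 5, with a median change of 0.02. The place of this crossing depends on the scaling, which sets the zero. In the longest bin (median 4563 nt) the median change was 0.48 (0.41 and 0.56), and 899 of 1513 genes rose while 24 fell. The curve flattened with length: the bin at 2169 nt already stood at 0.38. The distance of a gene from the median of its length bin is therefore given for the main examples of each group, since a fall of a short gene can equal that of its bin. Over all genes, the middle 50% of these distances ran from -0.35 to 0.37. The shortest bin spans 111 to 555 nt and the longest 3402 to 26397 nt, so distances within these bins can still carry length.

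**Figure D2:**
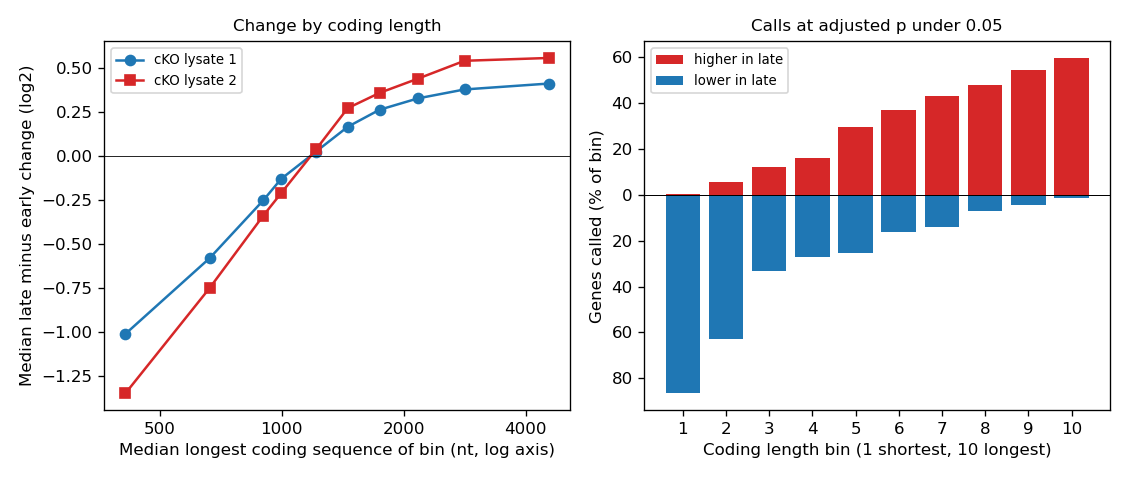
Left, the median late minus early change (log2) of 10 equal bins of genes by coding length (log axis, nt) in each cKO lysate. Right, the percentage of each bin called higher (up) or lower (down) in late polysomes, from 0.198% higher and 86.5% lower in the shortest bin to 59.4% higher and 1.59% lower in the longest.

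A single short coding sequence shows the scale of this. Rpl39, a protein of the large ribosomal subunit encoded on chromosome X at 37082520 to 37085402 (minus strand, GRCm38), has one of the shortest open reading frames of the list. It is printed because all of its coding region, start and stop codon in capitals, fits in 156 bases:
Rpl39: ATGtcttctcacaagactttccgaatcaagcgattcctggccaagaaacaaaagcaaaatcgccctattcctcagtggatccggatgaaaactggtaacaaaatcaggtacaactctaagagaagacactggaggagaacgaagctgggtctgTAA
Rpl39 was at 94.5 and 141.1 TPM in the early and 29.8 and 22.6 in the late libraries, on 24 to 244 reads. It fell by 2.24 log2 (SE 0.28, limma adjusted p = 0.00188), further than the median of its own length bin by 1.04. The median length in that bin is 411 nt, so most of its genes are longer than Rpl39.

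Ubb was an exception among short and middle-sized coding sequences. It encodes ubiquitin, the small protein attached to others to mark them for degradation, as head-to-tail repeats of a 228 nt unit (76 codons), and a scan found 4 units in its longest coding sequence of 915 nt. Rps27a, named outside the rule for named genes, encodes 1 unit fused to a ribosomal protein in 468 nt, and its unit is 80.7% identical to the first of Ubb. Reads from such repeats may be hard to assign, which makes both values uncertain. The first 42 bases of these units are printed to show the repeats, from GENCODE on GRCm38 (Ubb on chromosome 11 at 62551171 to 62553213, plus strand, and Rps27a on chromosome 11 at 29545846 to 29548109, minus strand), with the first codon in capitals:
Ubb, unit 1: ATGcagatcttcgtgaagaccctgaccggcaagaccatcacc
Ubb, unit 2: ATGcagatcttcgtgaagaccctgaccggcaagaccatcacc
Ubb, unit 3: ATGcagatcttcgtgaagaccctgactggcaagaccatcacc
Ubb, unit 4: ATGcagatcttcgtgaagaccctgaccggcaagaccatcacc
Rps27a, unit 1: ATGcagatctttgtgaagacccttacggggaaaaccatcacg
Ubb rose from 71.1 and 49.7 TPM in early to 223.6 and 238.1 in late libraries, a change of 1.81 (SE 0.14, limma adjusted p = 0.00167), and stood 2.13 above its length bin. Rps27a was at 461.7 and 504.9 in early and 340.3 and 221.3 in late (-0.94, SE 0.20, limma adjusted p = 0.00851), and was not called without lysate 2 (-0.52, limma adjusted p = 0.0627). In both lysates the late values of Ubb lay above, and those of Rps27a below, the early ones.

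Genes of the translation machinery split by kind, and the kinds differed in coding length. The median was 468 nt for cytosolic ribosomal proteins and 1260 nt for translation factors. The factors lay at a median distance of 0.17 from their length bins. Of 81 tested genes for cytosolic ribosomal proteins, the structural proteins of the ribosome, 69 fell and 1 rose, with a median change of -1.19 against -0.01 over all genes and a median distance of -0.27 from their length bins. Rplp2, a protein of the ribosomal stalk, went from 1877.5 and 2082.3 TPM in early to 930.7 and 541.5 in late libraries (-1.60, SE 0.27, limma adjusted p = 0.00401). Rplp1, its partner in the stalk, fell less, from 1776.8 and 1728.9 to 1049.2 and 920.7 TPM (-0.96, SE 0.15, limma adjusted p = 0.00299). Rpl8, with a longer coding sequence, was at 1543.2 and 1318.8 TPM in early and 1537.5 and 1396.8 in late, and did not pass (-0.09, limma adjusted p = 0.637). From their length bins Rplp2 lay at -0.41, Rplp1 at 0.23 and Rpl8 at 0.58, so Rplp1 fell less than genes of its length. The 1 riser, Rps4l, has no coding sequence in the annotation used and was not called without lysate 1 (0.28, limma adjusted p = 0.298). The summed TPM of the list was 47903 and 47589 in early and 30236 and 22463 in late libraries. The late library of lysate 2 held the smallest share of these transcripts.

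Translation factors, which load, move and release ribosomes, did not share this fall: 25 of 58 rose and 18 fell, with a median of 0.13, and 13 rose and 12 fell without lysate 2. Eef1a2, the elongation factor form of neurons and muscle, rose from 205.4 and 179.1 to 449.8 and 521.4 TPM (1.21, SE 0.13, limma adjusted p = 0.00167). Its ubiquitous relative Eef1a1 was at 2265.2 and 1794.4 in early and 2410.4 and 2048.3 in late and did not pass (0.01, limma adjusted p = 0.948). Eef2, the factor that moves the ribosome along, did not pass either (0.15, limma adjusted p = 0.376). Eif1, the short factor that guards start codon choice, fell from 750.7 and 801.0 to 359.7 and 360.4 TPM (-1.23, SE 0.13, limma adjusted p = 0.00167), at -0.04 from its bin. Eef1e1, a small subunit of the tRNA synthetase complex, was the member that fell most (-1.78, SE 0.24, limma adjusted p = 0.00202).

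Mitochondrial ribosomal proteins and the respiratory chain, both made of short nuclear-encoded proteins for the most part, fell as widely. Of 77 mitochondrial ribosomal protein genes 62 fell and 6 rose, with a median of -1.07. Of 79 nuclear genes for respiratory chain and ATP synthase subunits 66 fell and 9 rose, with a median of -1.45 and a median distance of -0.34. Cox6b1, a subunit of cytochrome c oxidase, went from 591.6 and 800.0 TPM in early to 209.8 and 103.5 in late (-2.34, SE 0.33, limma adjusted p = 0.00241). Cox5b, of the same complex, went from 1189.1 and 1320.3 to 457.4 and 273.1 (-1.95, SE 0.24, limma adjusted p = 0.00186). Both fell further than their length bin, by -1.15 for Cox6b1 and -0.76 for Cox5b. Long members rose. Atp5b, the catalytic subunit of ATP synthase, went from 735.3 and 568.7 to 1343.2 and 1279.6 TPM (0.89, SE 0.14, limma adjusted p = 0.0032), and Sdha, the flavoprotein of complex II, from 121.8 and 97.6 to 302.9 and 299.0 (1.33, SE 0.12, limma adjusted p = 0.00167). Both stayed apart from their early values in each lysate. Mrps27 (0.89) rose among the mitochondrial ribosomal proteins, and Mrpl33 (-2.15) fell most.

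Histone mRNAs fell too. Replication-dependent histone mRNAs end in a stem-loop in place of a poly(A) tail, and of 57 tested genes 52 fell and 0 rose, with a median of -1.28 and a median distance of -0.09. Hist1h4d, one of many copies of histone H4, was at 4736.9 and 5130.0 TPM in early and 1709.0 and 1633.4 in late libraries (-1.69, SE 0.20, limma adjusted p = 0.00179). The linker histones Hist1h1c (-0.31, limma adjusted p = 0.272) and Hist1h1e (-0.15, limma adjusted p = 0.547), whose coding sequences are longer, did not pass. Hist1h4d lay at -0.49 from its length bin. Of 10 polyadenylated variant histone genes 8 fell and 1 rose. H2afz, the H2A.Z variant, fell from 483.2 and 495.4 to 191.1 and 160.6 TPM (-1.60, SE 0.14, limma adjusted p = 0.00167), and H2afy2, a macroH2A with a long coding sequence, rose (0.59, SE 0.10, limma adjusted p = 0.00396). Histone copies are near-identical, so the value of a single copy is uncertain.

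Several groups of abundant cytosolic proteins stood above their length bins. All 18 tested glycolytic enzyme genes lay above the median of their bin, by a median of 0.83, and 15 rose and 0 fell (median change 1.04). Pkm, pyruvate kinase, went from 363.0 and 274.2 TPM in early to 895.2 and 793.4 in late (1.29, SE 0.12, limma adjusted p = 0.00167). Aldoc, the aldolase of neural tissue, went from 26.9 and 16.8 to 90.1 and 95.5 (1.95, SE 0.21, limma adjusted p = 0.00167), and Pfkl, a phosphofructokinase, from 21.6 and 14.3 to 69.0 and 65.4 (1.75). Pkm lay 0.98 above its bin. For Aldoc and Pfkl the late values of the lysates were closer to each other than the early ones. Gapdh rose by 0.97 (SE 0.13, limma adjusted p = 0.00213) and Aldoa by 1.16 (SE 0.15, limma adjusted p = 0.00191).

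Tubulins, the building blocks of microtubules, rose in 11 of 15 genes and fell in 1, with a median of 0.99 and a median distance of 0.79. Tubb4b went from 801.2 and 605.1 to 2025.6 and 2200.1 TPM (1.47, SE 0.18, limma adjusted p = 0.00178), at 1.26 above its bin, and Tuba1a from 1085.3 and 983.9 to 2100.6 and 2583.2 (1.05, SE 0.17, limma adjusted p = 0.00324). The neuronal Tubb3 rose by 0.99 (SE 0.12, limma adjusted p = 0.00183). The 1 faller was Tubg2, a gamma tubulin (-1.07, SE 0.14, limma adjusted p = 0.00204). Dynein heavy chains, motors with very long coding sequences, did not rise with their length: 0 of 11 rose, 1 fell (Dnah11, -0.69, SE 0.12, limma adjusted p = 0.00422), and all 11 lay below their length bin, by a median of -0.59. Their median coding length was 13452 nt against 4563 nt in the longest bin, so the distance sets them against mostly shorter genes. The median change of these 11 was -0.11 and turned to 0.0073 with TPM as deposited.

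Cytosolic heat shock proteins, which fold other proteins, rose in 12 of 18 genes and fell in 3, with a median of 0.84. Hsp90aa1 went from 322.6 and 210.8 to 707.0 and 691.8 TPM (1.29, SE 0.17, limma adjusted p = 0.00191), and Hspa8 from 697.8 and 518.5 to 1261.2 and 1250.3 (0.93, SE 0.15, limma adjusted p = 0.00346). Hspe1, the short cochaperonin of mitochondria, fell from 234.6 and 222.8 to 103.5 and 59.9 TPM (-1.65, SE 0.21, limma adjusted p = 0.00185), at -0.46 from its bin. In the proteasome, the protease that degrades ubiquitin-tagged proteins, 18 of 37 subunit genes rose and 8 fell (median 0.24, median distance 0.56). The regulatory subunit Psmd2 went from 123.5 and 87.3 to 301.7 and 271.7 TPM (1.33, SE 0.12, limma adjusted p = 0.00167), and Psmd4 rose by 1.21 (SE 0.15, limma adjusted p = 0.00179). The abundant catalytic-core subunit Psmb6 was called lower (-0.55, SE 0.11, limma adjusted p = 0.00714), at 0.11 from its bin, and was not called without lysate 2 (-0.45, limma adjusted p = 0.0824). Psmb9 of the immunoproteasome was the member that fell most (-1.76, SE 0.20, limma adjusted p = 0.0017), on 2 to 30 reads in a library.

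**Figure D3:**
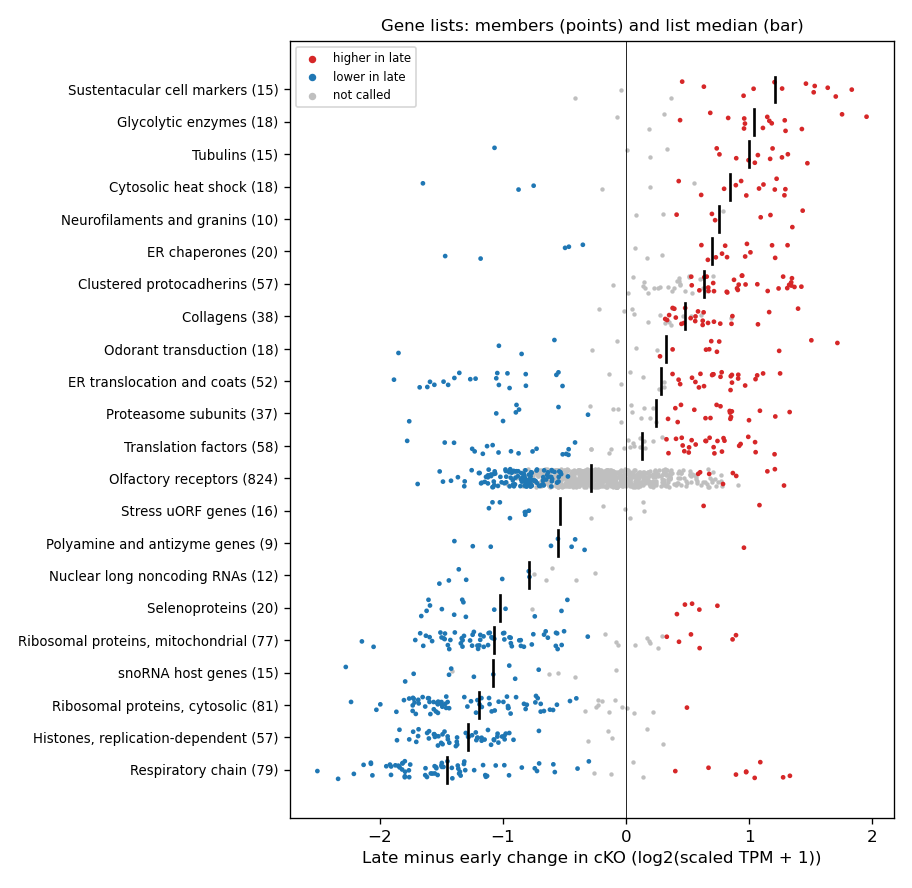
Late minus early change in cKO (x axis, log2(scaled TPM + 1)) of every tested member of 22 gene lists (y axis, number tested in brackets), in order of the list median (black bar). Members called higher in late are red, called lower blue and not called grey. Respiratory chain, histone and ribosomal protein lists lie at the bottom with medians of -1.45, -1.28 and -1.19, and sustentacular markers and glycolytic enzymes at the top with 1.21 and 1.04.

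Genes of the secretory pathway spread widely. Of 20 chaperones of the endoplasmic reticulum (ER), 12 rose and 5 fell, and 8 rose and 2 fell without lysate 2. Calr, the calcium-binding chaperone calreticulin, went from 888.2 and 744.2 to 1877.2 and 2250.9 TPM (1.21, SE 0.18, limma adjusted p = 0.00276). Pdia6, a disulfide isomerase, went from 157.1 and 111.9 to 375.4 and 346.9 (1.31, SE 0.12, limma adjusted p = 0.00167). Manf, a short secreted stress protein, fell from 202.3 and 222.9 to 88.5 and 77.8 TPM (-1.47, SE 0.17, limma adjusted p = 0.00173). Of 52 genes of ER translocation and vesicle coats, 24 rose and 21 fell, with the small translocon subunits Sec61b (-1.68, SE 0.12, limma adjusted p = 0.00167) and Sec61g (-1.89, SE 0.18, limma adjusted p = 0.00167) low in late and the coat protein Sec24c (1.25, SE 0.14, limma adjusted p = 0.00169) high.

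Collagens and clustered protocadherins, long extracellular and adhesion proteins, had 0 genes called lower, and few genes of such lengths were. Of 38 collagen genes 24 rose and 0 fell (median 0.47, median distance 0.03), and of 57 protocadherins 29 rose and 0 fell (median 0.64, median distance 0.22). Among all genes of length bins 9 and 10, 54.3% and 59.4% rose and 4.43% and 1.59% fell. Without lysate 2 the risers were 8 and 10. Col1a1, the chain of collagen I found in bone and skin, was the most abundant, at 8240.1 and 5533.3 TPM in early and 11028.2 and 10185.0 in late, and did not pass (0.52, limma adjusted p = 0.153). Col8a2, of basement membranes, went from 36.6 and 25.9 to 86.2 and 94.4 TPM (1.40, SE 0.16, limma adjusted p = 0.00175). Pcdhb1 went from 105.1 and 63.2 to 247.9 and 233.5 (1.42, SE 0.16, limma adjusted p = 0.00168). Some clustered protocadherins share exons within a cluster, which makes their single values uncertain.

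Olfactory neuron genes moved in both directions. Of 18 odorant transduction genes, which turn odour binding into a current, 10 rose and 4 fell with a median of 0.33, and without lysate 2 these counts were 6 and 1. Adcy3, the adenylyl cyclase of olfactory cilia, went from 164.4 and 114.2 TPM in early to 484.2 and 503.8 in late libraries (1.72, SE 0.17, limma adjusted p = 0.00167). Ano2, the chloride channel that amplifies the current, went from 80.7 and 69.3 to 196.5 and 193.0 (1.24, SE 0.11, limma adjusted p = 0.00167). Gng13, the small gamma subunit of the G protein, fell from 1682.0 and 1722.7 to 621.4 and 426.4 TPM (-1.85, SE 0.21, limma adjusted p = 0.00168). Adcy3 lay 1.24 above its length bin and Gng13 at -0.66. Ano2 and the next pair of genes were outside the rule for named genes. The channel subunit Cnga2 was at 381.4 and 379.0 in early and 488.1 and 501.2 in late (0.25, limma adjusted p = 0.101), and Gnal, the G protein alpha subunit, was called (0.38, limma adjusted p = 0.0456) but not when any 1 lysate was left out (limma adjusted p 0.132 to 0.213).

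Of 16 mature neuron markers, 8 rose and 4 fell, and 7 and 2 without lysate 2. Omp, the olfactory marker protein, was at 4435.9 and 4425.0 TPM in early and 2836.2 and 2438.7 in late libraries (-0.88, SE 0.22, limma adjusted p = 0.0151), and was not called without lysate 2 (-0.73, limma adjusted p = 0.154), without either WT lysate (limma adjusted p 0.0624 and 0.0578), or with quantile normalization. It lay 0.31 above its length bin, so genes of its length fell further. S100a5, a short calcium-binding protein, fell from 5167.2 and 5490.4 to 1883.8 and 1259.2 TPM (-1.92, SE 0.25, limma adjusted p = 0.00191), at -0.72 from its bin. Of 14 immature neuron markers 6 rose and 5 fell, against 28.8% and 28.6% of all genes tested. Dpysl5, a growth cone protein, went from 79.0 and 76.8 to 197.6 and 243.8 (1.36, SE 0.11, limma adjusted p = 0.00167), and Gng8, the gamma subunit whose promoter marks immature neurons, from 186.5 and 213.0 to 98.8 and 68.5 (-1.39, SE 0.19, limma adjusted p = 0.00207). Neurofilaments and granins, proteins of axons and secretory granules, rose in 7 of 10 genes and fell in 0 (median 0.76). Chga, chromogranin A, went from 621.5 and 504.5 to 1668.7 and 1638.8 TPM (1.43, SE 0.14, limma adjusted p = 0.00167), and Scg2, secretogranin II, rose by 1.35 (SE 0.14, limma adjusted p = 0.00167).

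Olfactory receptor genes, each expressed in a small share of the neurons, had a small median change. The pseudocount of 1 understates changes at their low levels. Of 1090 listed genes 824 were tested, and 115 fell and 9 rose, with a median of -0.28 and a median distance of -0.03 from their length bins. The 823 with a coding sequence (median 939 nt) are themselves a sizeable part of the bins near that length, which hold 1513 genes each. Their distance is therefore small in part by construction. Both counts are smaller shares than over all genes tested, where 28.6% fell and 28.8% rose. The fallers were 16 and the risers 4 without lysate 2. Receptor levels were low: the most abundant, Olfr536, was at 19.0 and 23.4 TPM in early and 25.2 and 29.8 in late and did not pass (0.24, limma adjusted p = 0.0971). Their summed TPM was 2569 and 2860 in early and 2235 and 2348 in late, so both late libraries lay below both early ones. Of 11 trace amine-associated receptors, a second receptor family, 2 rose and 2 fell, with 4 and 3 without lysate 1 and 1 and 0 without lysate 2. Taar6 went from 6.68 and 5.71 to 16.0 and 13.6 TPM (1.02, SE 0.17, limma adjusted p = 0.00362).

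The list of supporting cell markers had the highest median change of the cell type lists. Because the tissue was taken whole, fewer cells of a type and less RNA per cell cannot be told apart, and no cause of these changes was tested. Of 15 sustentacular cell markers, genes of the supporting cells, 12 rose and 0 fell, with a median of 1.21 and a median distance of 1.25. Cyp2g1, a cytochrome P450 of the olfactory epithelium, went from 957.8 and 696.9 TPM in early to 2958.3 and 3418.8 in late (1.83, SE 0.20, limma adjusted p = 0.00167). Sec14l3, a lipid-binding protein, went from 791.0 and 542.3 to 2222.8 and 2442.5 (1.70, SE 0.20, limma adjusted p = 0.00174), and Cyp2a5, another P450, from 1858.5 and 1004.7 to 4682.3 and 3932.9 (1.52, SE 0.22, limma adjusted p = 0.00247). Cbr2, a carbonyl reductase at 4443.3 and 4320.9 in early and 3255.6 and 3940.7 in late, did not pass (-0.42, limma adjusted p = 0.125). In lysate 2 the early values of the 3 risers were lower than in lysate 1. The summed TPM of the list went from 9948 and 7777 in early to 17101 and 17511 in late libraries.

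Bowman gland markers, genes of the mucus-secreting glands, rose in 10 of 16 and fell in 5, and without lysate 2 in 3 and 3. Bpifb3, a secreted lipid-binding protein, went from 699.8 and 379.8 to 1803.5 and 2133.5 TPM (1.80, SE 0.27, limma adjusted p = 0.00272). Lcn11, a short lipocalin, fell from 2921.3 and 2852.1 to 1479.3 and 1423.0 (-1.12, SE 0.15, limma adjusted p = 0.00219), close to the median of its length bin (distance 0.07). Of 10 markers of horizontal basal cells, the reserve stem cells, 9 rose and 0 fell, and 4 rose without lysate 2. Krt5, their keratin, went from 20.6 and 12.3 to 44.6 and 36.9 TPM (1.18, SE 0.15, limma adjusted p = 0.00185). Aqp3, the water and glycerol channel, had the largest rise of all genes named by size, from 182.5 and 129.6 to 607.8 and 775.1 TPM (2.03, SE 0.23, limma adjusted p = 0.00169). Of 14 globose basal cell markers, the cycling progenitors, 9 rose and 1 fell, and 5 rose without lysate 1 and 3 without lysate 2. The 1 faller, Hes6, a short transcription cofactor, went from 282.9 and 287.1 to 174.7 and 134.4 (-1.02, SE 0.16, limma adjusted p = 0.00314).

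**Figure D4:**
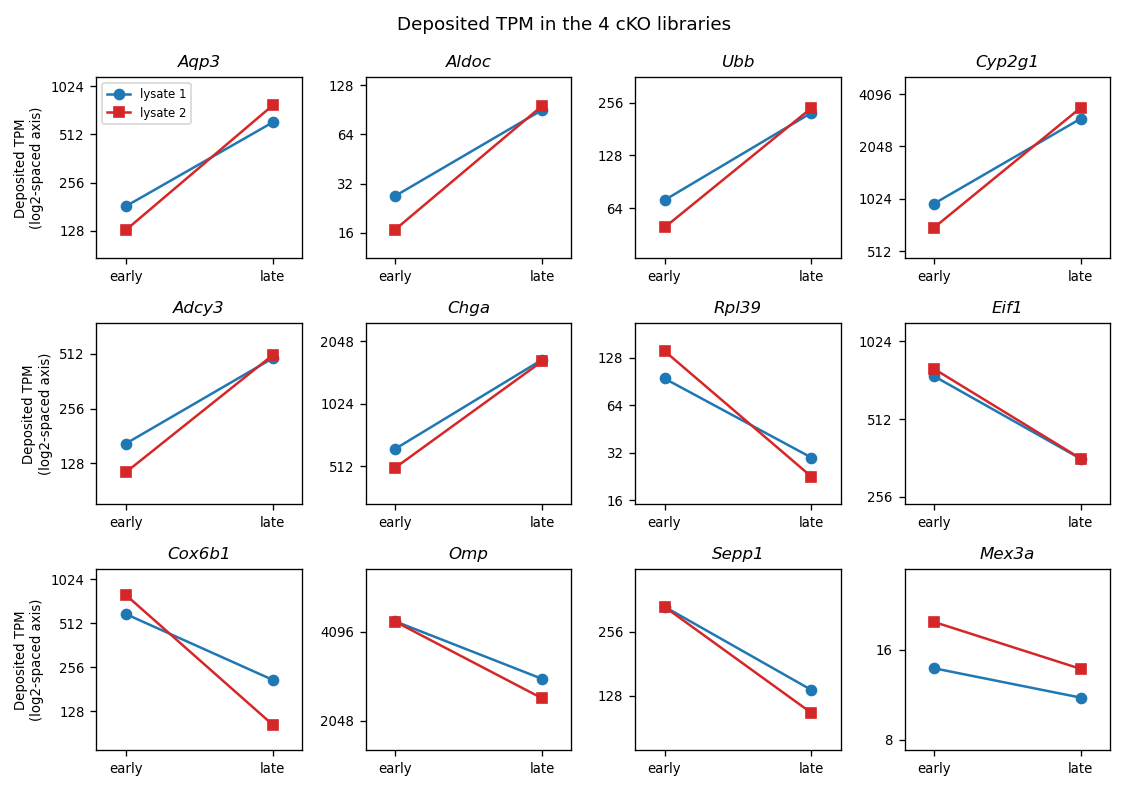
Deposited TPM (log2-spaced axis, own range in each panel) of 12 genes in the early and late libraries of cKO lysate 1 (blue circles) and lysate 2 (red squares), with a line joining the pools of a lysate. The first 6 genes are higher in both late libraries, such as Aqp3 at 607.8 and 775.1 against 182.5 and 129.6, and the last 6 lower, with Mex3a the smallest change.

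Genes known for translational control were examined by mechanism. Stress response mRNAs with uORFs hold ribosomes ahead of the coding sequence in unstressed cells, and of 16 genes of this response 8 fell and 2 rose, with a median of -0.54 and a median distance of -0.21. Atf4, the transcription factor of the integrated stress response, went from 391.6 and 463.4 TPM in early to 227.6 and 228.0 in late (-1.03, SE 0.14, limma adjusted p = 0.00228), at -0.84 from its length bin. Ppp1r15a, the stress-induced phosphatase subunit, fell by 0.82 (SE 0.12, limma adjusted p = 0.00244), at -1.21 from its bin. Ddit3, which encodes CHOP, a target of ATF4, fell by 1.11 (SE 0.14, limma adjusted p = 0.00195), which is the fall of its length bin (distance 0.08). The constitutive relative of Ppp1r15a, Ppp1r15b, did not pass (0.14, limma adjusted p = 0.251). Atf5, the most abundant of the list, was at 1459.1 and 1860.9 in early and 927.9 and 940.7 in late (-0.94, SE 0.17, limma adjusted p = 0.00438), and was not called without lysate 2 (limma adjusted p = 0.0547). Asns, asparagine synthetase, which is a target of ATF4, rose by 1.08 (SE 0.15, limma adjusted p = 0.00218).

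Polyamine genes, several of which are set by polyamine levels through uORFs or a frameshift, fell in 8 of 9 cases and rose in 1, with a median of -0.55 and a median distance of -0.58. The fallers were 4 without lysate 1 and 5 without lysate 2. Sat1, the acetylase of spermidine and spermine, went from 95.6 and 101.6 to 44.7 and 36.3 TPM (-1.40, SE 0.13, limma adjusted p = 0.00167), at -0.20 from its bin. Oaz2, an antizyme made by a frameshift, went from 187.1 and 231.2 to 105.6 and 85.7 (-1.25, SE 0.18, limma adjusted p = 0.00236), at -0.58. Genes with iron-responsive elements were called in shares not far from those of all genes tested (28.8% higher, 28.6% lower). Of 8 genes with iron-responsive elements 3 rose and 2 fell, and 1 rose and 1 fell without lysate 2. Without lysate 1 these counts were 3 and 1. Fth1, the ferritin heavy chain, fell by 0.50 (SE 0.11, limma adjusted p = 0.00921) and was not called without lysate 1 (-0.41, limma adjusted p = 0.076).

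Selenoproteins carry selenocysteine, which is inserted at a TGA codon that would otherwise end translation. The coding sequences were scanned for in-frame TGA, and 20 of the 21 symbols of the list had one. The other, Selp, is the symbol of P-selectin and was left out after the scan. Of the 20 genes 14 fell and 5 rose, with a median change of -1.03 and a median distance of -0.42, and without lysate 2 the counts were 12 and 0. The fallers included the glutathione peroxidases, which remove peroxides: Gpx1 went from 362.5 and 374.3 TPM to 147.4 and 136.4 (-1.50, SE 0.15, limma adjusted p = 0.00167), and Gpx3 from 570.5 and 573.6 to 244.8 and 228.3 (-1.40, SE 0.13, limma adjusted p = 0.00167). Sepp1, the selenium transport protein of plasma, went from 334.8 and 334.4 to 136.2 and 106.3 (-1.59, SE 0.14, limma adjusted p = 0.00167). At -1.61 it lay among the 8 genes furthest below their length bin of those that could be named. Gpx1 was added outside the rule for named genes.

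The place of the TGA differs between these genes, and a window around it is printed for 4 of them, with the TGA in capitals, from GENCODE coding sequences on GRCm38:
Gpx1 (chromosome 9, 108338903 to 108340343, plus strand, codon 47 of 201): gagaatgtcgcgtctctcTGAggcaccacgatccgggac
Gpx3 (chromosome 11, 54902453 to 54910377, plus strand, codon 73 of 226): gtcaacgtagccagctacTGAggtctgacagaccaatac
Sepp1 (chromosome 15, 3268547 to 3280508, plus strand, codon 59 of 380): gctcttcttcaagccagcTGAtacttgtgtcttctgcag
Txnrd1 (chromosome 10, 82833951 to 82897712, plus strand, codon 612 of 613): atcctccagtctggctgcTGAggt
Sepp1 holds 10 in-frame TGA codons in all, and 7 of them lie in the last 294 bases of its coding sequence, printed to show their spacing:
Sepp1, bases 847 to 1140 of the coding sequence: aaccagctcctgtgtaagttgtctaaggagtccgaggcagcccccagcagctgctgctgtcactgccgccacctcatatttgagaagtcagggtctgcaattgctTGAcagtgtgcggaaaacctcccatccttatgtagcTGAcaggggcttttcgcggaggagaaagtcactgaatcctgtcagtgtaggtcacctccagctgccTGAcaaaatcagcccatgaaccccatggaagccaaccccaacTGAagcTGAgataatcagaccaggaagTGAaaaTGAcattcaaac
In 6 genes the first TGA lies within the last 3 codons, and in 14 it comes earlier. The split was chosen after the values were seen and has no test. Of the 6 with a late TGA, 5 lay above their length bin and 1 below, with distances from -0.08 to 0.71 (median 0.27). Of the 14 with an earlier TGA, 13 lay below and 1 above (Sepn1, at 0.17), with distances from -1.61 to 0.17 (median -0.56). The thioredoxin reductase Txnrd1, also named outside the rule, was at 169.9 and 164.8 TPM in early and 227.8 and 260.2 in late (0.41, SE 0.11, limma adjusted p = 0.0195), and was not called without lysate 2 (0.34, limma adjusted p = 0.163).

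**Figure D5:**
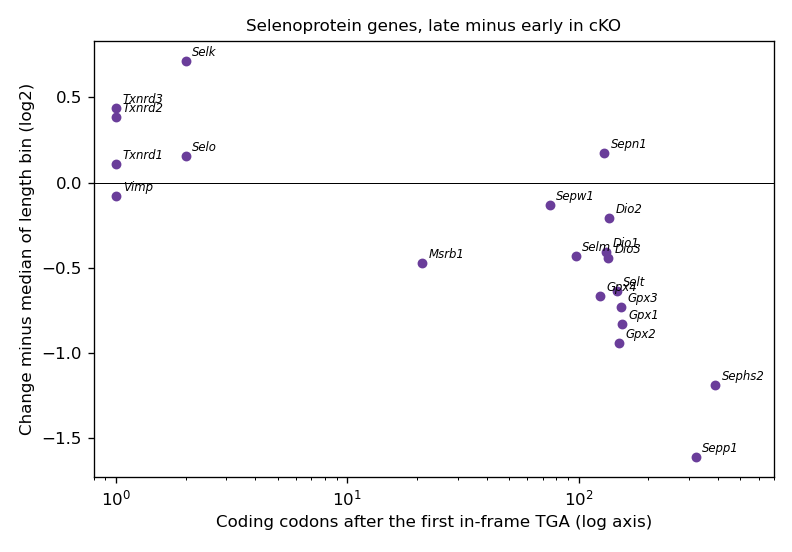
Each point is 1 of 20 selenoprotein genes, placed by the number of coding codons after its first in-frame TGA (x axis, log scale) and by its late minus early change in cKO minus the median change of its coding length bin (y axis, log2). The 6 genes with the TGA near the end lie between -0.08 and 0.71, and Sepp1 lies lowest at -1.61.

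Long noncoding RNAs on the lists examined moved one way where they were called. Of 12 nuclear long noncoding RNAs 7 fell and 0 rose, with a median of -0.79. Malat1, a nuclear RNA, was at 2083.1 and 2275.4 TPM in early and 873.9 and 786.9 in late (-1.52, SE 0.18, limma adjusted p = 0.00179), so it was still among the abundant RNAs of both pools. Neat1, the scaffold of paraspeckles, fell by 1.30 (SE 0.22, limma adjusted p = 0.00365). Of 15 host genes of small nucleolar RNAs, whose spliced RNAs are mostly short and noncoding, 10 fell and 0 rose (median -1.08), and 6 fell without lysate 2. Snhg1 went from 51.2 and 55.5 to 25.2 and 17.1 TPM (-1.44, SE 0.26, limma adjusted p = 0.00457).

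The largest falls were in short coding sequences, and some rested on few reads. Slirp, a mitochondrial RNA-binding protein, went from 56.2 and 85.4 to 20.9 and 7.08 TPM (-2.52, SE 0.46, limma adjusted p = 0.00481) on 8 to 157 reads. Atp5k, a subunit of ATP synthase, went from 421.2 and 771.8 to 154.3 and 76.2 (-2.51, SE 0.45, limma adjusted p = 0.00463). Nop10, of the pseudouridylation complex, Bglap, the bone protein osteocalcin, and Polr2k, a subunit of the RNA polymerases, fell by 2.31, 2.31 and 2.28. The stefins Stfa2, Stfa3 and Stfa2l1, inhibitors of cathepsins made by neutrophils, were at 10.9 and 15.6, 3.06 and 16.0, and 11.2 and 13.8 TPM in early, and at most 1.98 in any late library. They had at most 29 reads in a library and are near-identical copies, so their fold changes are not given.

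The largest rises beyond those above were Acy1, an aminoacylase (1.83, SE 0.23, limma adjusted p = 0.00184), Slc22a18, a transporter (1.80, SE 0.24, limma adjusted p = 0.00198), Apoe, the lipid carrier (1.78, SE 0.18, limma adjusted p = 0.00167), and Madd, an exchange factor of synaptic vesicle traffic (1.77, SE 0.16, limma adjusted p = 0.00167). Apoe went from 643.3 and 404.4 to 1952.1 and 1876.8 TPM and lay 2.10 above its length bin. Genes far above their bin included the short Ptn, the growth factor pleiotrophin, at 266.4 and 202.5 TPM in early and 457.8 and 481.6 in late (2.08 above), and Gsta4, a glutathione transferase (2.07 above). These short mRNAs were enriched in late polysomes against the run of their length.

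Of the genes furthest below their bin, Eif4g2 encodes a relative of initiation factor eIF4G and starts at a codon other than ATG. It went from 786.5 and 890.9 TPM to 498.3 and 456.9 (-0.94, SE 0.16, limma adjusted p = 0.0038), at -1.39 from its bin. Dmkn, the skin protein dermokine, went from 30.3 and 29.1 to 12.5 and 7.37 (-1.65, SE 0.24, limma adjusted p = 0.00255), at -1.86. Cep83 and Cep126, proteins of centrosomes and cilia, stood at -1.58 and -1.38, and Jakmip1, a microtubule-associated protein of neurons, at -1.40. The distance uses the longest annotated coding sequence, which need not be the form made in this tissue.

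Whether the changes were particular to cKO was tested by the difference between the cKO and WT changes in the same fit. By limma 1 of 16097 genes (0.00621%) passed, Mir6541, on 4 reads in all libraries together, with 427 at an unadjusted p under 0.05. The number of calls was 7 without cKO lysate 1 and 9 without cKO lysate 2. With voom on the inferred reads 0 passed, with 374 at an unadjusted p under 0.05. None of the 279 genes open to naming passed. In WT 8660 genes (53.8%) changed, 4325 higher and 4335 lower. The list medians lay side by side: -1.19 in cKO and -1.07 in WT for cytosolic ribosomal proteins, -1.45 and -1.30 for the respiratory chain, 1.04 and 1.03 for glycolytic enzymes, 1.21 and 1.04 for sustentacular markers, and -0.28 and -0.14 for olfactory receptors. Aqp3 changed by 2.03 in cKO and 1.57 in WT, a difference of 0.46 (SE 0.32), and Mex3a by -0.51 and -0.27, a difference of -0.24 (SE 0.17). Among 11064 genes with a mean TPM of at least 10, the median SE of the difference was 0.18, and 34 differed by more than 1 in either direction. The SD of the change over genes was 0.625 and 0.782 in WT lysates 1 and 2, against 0.673 and 0.897 in cKO, so the lysates of the 2 genotypes overlapped in it. A gene that missed the threshold is not shown to change alike in the 2 genotypes.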

How the data were processed

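Polysome RNA was sequenced in 8 libraries, of which 4 (2 cKO lysates, early and late) make the comparison. The authors deposited 1 table of TPM values for 21765 gene symbols, each library summing to 1000000, and 25 of the symbols had been turned into dates. FastQC, cutadapt, STAR, DESeq2 and the build mm10 are named, with no versions, per the submitters' processing notes. The counting tool and the annotation are not given in the sources used here. Libraries were made with a stranded low-input total RNA kit, per the labels' protocols.

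Libraries were brought to a common scale by median ratios of TPM (cKO factors 0.952 and 0.931 in early, 1.01 and 1.05 in late), and log2(scaled TPM + 1) was fitted with limma 3.58.1 in R 4.3.3 for 16097 genes, those whose mean TPM reached 1. All 8 libraries were fitted with the lysate as a block and a mean-variance trend, and two-sided p-values had Benjamini-Hochberg adjustment, with calls made under 0.05. The pseudocount of 1 understates the change of low genes. TPM carries no depth, so whole reads were inferred from its steps for 19783 of 19783 genes above 0 in at least 2 libraries (tolerance 0.001), which was exact for 99.6% of 19544 genes in simulated data. The pairing comes from the lysate names in the deposited table. Deviations of paired libraries from their group means correlated at 0.0502 in cKO and 0.0862 in WT.

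In simulated data 200 genes were changed 3-fold among 16053. The late minus early test recovered 184 with 29 false calls, and voom on reads recovered 187 with 9. The test of the difference between genotypes recovered 160 with 25. Except with voom, the false calls were a larger share of the calls than the adjusted p threshold aims at. In the data themselves 9244 of 16097 genes were called, far more than were changed in the simulation. The simulation therefore does not give the accuracy of those calls. Coding lengths, positions and sequences came from GENCODE M21 on GRCm38, which matched 98.7% of the symbols and need not be the authors' annotation. Lists have counts and medians and no test.

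The libraries compared, the gene lists and the rule for named genes were chosen with earlier results of these data known. The rule took Mex3a, the 12 largest rises and 12 largest falls (TPM of at least 10, libraries not overlapping), the 4 most abundant members and the largest called change in each direction of each list, the 8 genes furthest above and 8 furthest below their length bin (TPM of at least 20), and all members of lists of 10 or fewer. Genes outside it are marked, and a few that it takes are not reported here. Alternatives were pseudocounts of 0.1 and 0.5, other filters (none, a TPM of at least 5, at least 10 reads), TPM as deposited, quantile normalization, no trend, no lysate block, only the cKO libraries, each lysate left out, and voom. Figures were drawn with matplotlib 3.10.9.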

Additional observations from a re-analysis of the deposited data

Results flagged for a closer look

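Mir6541 was the only gene whose late minus early change differed between cKO and WT past the threshold, at -5.69 log2 (SE 0.34, limma adjusted p = 0.0358, Benjamini-Hochberg). It had 4 reads in all 8 libraries together, and 0 genes passed with voom on the inferred reads (374 at an unadjusted p under 0.05).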

How the results depend on the processing

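The count of 9244 called genes fell to 5109 (2375 higher, 2734 lower) without cKO lysate 2, and ranged from 5109 to 8086 when each lysate was left out (2375 to 3972 higher, 2734 to 4157 lower). Without the replicate block it was 9346 (4644 higher, 4702 lower), and Mex3a kept its call at -0.51 (limma adjusted p = 0.0351). With TPM as deposited the median of all genes shifted to 0.10, and 57.5% of calls were higher in late against 50.1%. Mex3a ranged from -0.65 to -0.38 when each lysate was left out, and lost its call without cKO lysate 2. Of 279 named genes, 59 other than Mex3a lost their call without cKO lysate 2 and 22 without cKO lysate 1. Omp and Fth1 also lost theirs with quantile normalization, Omp, Gnal and Txnrd1 with only the cKO libraries, Omp and Gnal with no filter, and Rps4l with no filter, trend or block. The difference between genotypes counted 0 genes with a pseudocount of 0.1, no filter, a TPM of at least 5, voom or at least 10 reads (424, 669, 301, 374 and 429 at an unadjusted p under 0.05), and 0 to 9 when each lysate was left out.

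The rank correlation with coding length was 0.327 when transcript length replaced coding length, 0.633 with a TPM of at least 5, 0.619 with a pseudocount of 0.1, and 0.603 to 0.609 with 1 cKO lysate. Values that turned sign were the medians of dynein heavy chains (0.0073 as deposited), receptor export helpers (0.014 as deposited, -0.26 to 0.086 with a lysate left out) and immature neuron markers (-0.016 to 0.062 with a lysate left out), and Psmb1 (0.0033 with quantile normalization). The cause was not tested. With 2 lysates and late depths down to 7776792 reads, changes of genes with few reads are the least certain.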

Other observations

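Markers of the less abundant cell types also went both ways. Of 14 neutrophil genes 9 fell and 2 rose, with a median of -1.82, and 1 rose without lysate 2. The median coding length of the neutrophil list was 367.5 nt, and its median distance from the length bins was -0.63. In the shortest bin 86.5% of all genes fell, with a median of -1.19. The list includes the stefins Stfa2, Stfa3 and Stfa2l1, with at most 29 reads in a library. S100a9, a short calcium-binding protein, went from 106.3 and 148.3 TPM in early to 32.8 and 23.4 in late (-2.26, SE 0.26, limma adjusted p = 0.00171), and its partner S100a8 from 54.2 and 61.6 to 18.8 and 15.1. Ltf, lactoferrin, which glands also make, rose from 232.6 and 89.3 to 585.2 and 370.3 (1.56, SE 0.18, limma adjusted p = 0.00169). Of 9 ensheathing glia markers 4 rose and 2 fell: Sox10, the glial transcription factor, rose by 1.31 (SE 0.15, limma adjusted p = 0.00168), and S100b, a short calcium-binding protein, fell by 2.09 (SE 0.25, limma adjusted p = 0.00176). Of 10 macrophage markers 3 fell and 2 rose, and 1 rose without lysate 1 and 0 without lysate 2. In the main fit the macrophage counts were near the shares over all genes tested, where 28.6% fell and 28.8% rose. The signalling adaptors Fcer1g (-1.48) and Tyrobp (-1.40), both short, were among the fallers.

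Of 10 markers of respiratory ciliated cells 5 fell and 3 rose, and 1 rose without lysate 2. Dynlrb2, a dynein light chain, went from 268.2 and 262.8 TPM in early to 91.2 and 62.6 in late (-1.92, SE 0.15, limma adjusted p = 0.00167), and Tekt1, a filament of the ciliary axoneme, from 49.5 and 41.9 to 94.0 and 84.1 (0.83, SE 0.10, limma adjusted p = 0.00175). Of 9 tested microvillous cell markers 5 rose and 1 fell, with 2 and 0 without lysate 1 and 3 and 0 without lysate 2. Coch rose from 97.6 and 66.2 to 232.9 and 248.5 (1.44, SE 0.16, limma adjusted p = 0.00167).

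Among immediate early genes, which neurons switch on with activity, 10 of 22 rose and 4 fell, and 6 rose and 2 fell without lysate 2. Jun went from 184.7 and 172.2 TPM to 343.0 and 419.7 (0.96, SE 0.12, limma adjusted p = 0.00185), and Jund from 229.2 and 233.4 to 165.6 and 182.1 (-0.54, SE 0.10, limma adjusted p = 0.00583). By annotated gene type, 85 of 152 long intergenic noncoding RNAs fell and 0 rose (median -0.84), 73 of 143 antisense genes fell and 2 rose (median -0.83), and 86 of 150 processed transcripts fell and 4 rose (median -0.79). Short RNA genes were called less often and had few reads. Of 171 miRNA genes 26 fell and 5 rose (median -0.48), with a median of 0 in each lysate and a median of 0.75 reads. Of 97 snoRNA genes 10 fell and 3 rose (median -0.51), with medians of 0.46 in lysate 1 and -1.60 in lysate 2 and a median of 7.75 reads. At so few reads a lack of calls does not show a lack of change. Over all genes 28.6% fell. Whether the counting used strand is not given in the sources used here, so antisense genes cannot be told apart from their partners.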
